A study of Homo sapiens with 8 samples.

Results

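The ends of 16 short chromosome arms were examined for open chromatin in 8 ATAC-seq libraries, an assay that marks accessible DNA by the insertions of the Tn5 transposase. Peaks of the 8 lists with 1 bp or more in common were joined into regions, and a region was counted as terminal when it started below 5 Mb in hg19 on chromosomes 1 to 12, 16, 17, 18 or 20. This gave 4032 terminal regions of 133028 in all (3.03%). The next 5 Mb of the same arms, from 5 to 10 Mb, held 3621 regions and served as the neighbour for comparison. The rule uses position alone, so the numbers and strengths of peaks below are measurements that it did not fix.

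The libraries came from 697 and KOPN-8, established B cell precursor acute lymphoblastic leukaemia lines. In each line 2 libraries came from cells with an empty sgRNA vector, labelled SETD2 WT, and 2 from a clone made with an sgRNA against SETD2 and labelled SETD2 heterozygous KO. The clone is BM_B for 697, and for KOPN-8 it is BA. SETD2 is the methyltransferase that places trimethylation on lysine 36 of histone H3 along transcribed genes. Each edited group is 1 clone set against a vector-carrying population, so the edit and the history of that clone cannot be told apart, and peak lists do not show whether SETD2 was edited. The labels name the libraries of a group biological replicates without saying how the cultures were separated, and p-values therefore measure the spread between these libraries, which may be technical. The lists held between 57154 and 76495 peaks, and read depth is unknown.

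A chromosome end carries telomere repeats, then subtelomeric DNA that is shared in near-identical copies between chromosomes, then unique sequence. Short reads from the shared copies cannot be placed on 1 chromosome. The unique sequence close to the end is rich in genes and in CpG islands on some arms, such as 16p, and poor in genes on others. In the RefSeq gene table for GRCh38, counting protein-coding genes inwards from the end of the arm, IRF4, a transcription factor of B cells, is number 2 on 6p, and the alpha-globin genes HBA2 and HBA1 are numbers 10 and 11 on 16p. CRBN, the substrate receptor of the cereblon ubiquitin ligase, is number 8 on 3p. CSMD1, a gene of great length, is number 16 on 8p. TERT, the catalytic subunit of telomerase, is number 28 on 5p, and NSD2, a methyltransferase for the same lysine 36 as SETD2, is number 46 on 4p. These names are background on gene order: genes were not located in hg19, and no region is assigned to a gene.

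Peaks were denser in the terminal 5 Mb than in the next 5 Mb in all 8 libraries, and 16p made up a large part of that difference. In the 697 controls the ends held 21.5 and 26.1 peaks per Mb against 18.2 and 22.6 in the next 5 Mb. The 697 clone held 25.4 and 30.5 against 21.2 and 25.9. In the KOPN-8 controls the values were 30.7 and 28.4 against 26.6 and 23.9, and in the KOPN-8 clone 31.5 and 29.7 against 26.4 and 25.4. The ratio of terminal to neighbouring peaks lay in a narrow band, from 1.15 to 1.19, and was above 1 in 8 of 8 libraries (mean log2 ratio 0.24, exact sign-flip permutation over libraries, two-sided p = 0.00781, the smallest that 8 libraries allow, and 0.0651 after Benjamini-Hochberg adjustment over 25 library-level tests). Without 16p it was 1.08 to 1.12, and without 5p and 16p 1.05 to 1.10. All libraries share the same genome, so this test speaks for the libraries and not for arms in general.

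**Figure D1:**
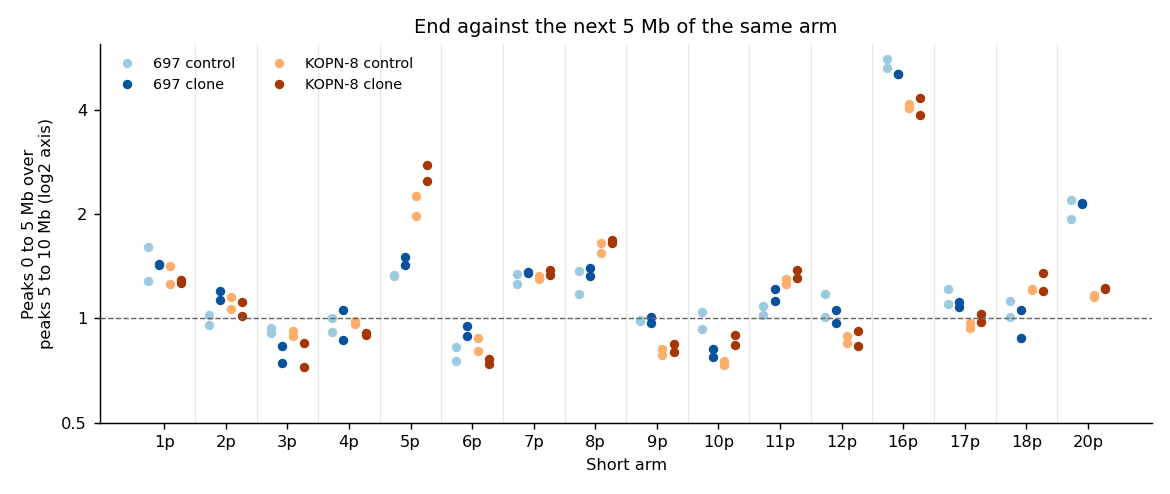
Number of peaks in the first 5 Mb divided by the number from 5 to 10 Mb of the same arm, on a log2 axis, for 16 short arms. Each point is 1 library, colours mark line and group, and the dashed line marks equal numbers; 16p lies between 3.85 and 5.58, while 3p and 6p lie below 1 in all 8 libraries.

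Arms differed widely in this ratio. It was above 1 in every library on 7 of 16 arms (1p, 5p, 7p, 8p, 11p, 16p and 20p) and below 1 in every library on 2 (3p and 6p). Over all 277 pairs of neighbouring 5 Mb windows of the genome, the first window was higher in all 8 lists in 28.5% and lower in all 8 in 35%. On 16p the ratio was 3.85 to 5.58, and the stretch beyond the end was nearly empty: between 6 and 7 Mb the libraries held 0 to 2 peaks and between 7 and 8 Mb 2 to 6, while each of the first 5 Mb held 19 to 55. On 8p the neighbour also had a nearly empty stretch, with 0 to 1 peaks between 7 and 8 Mb, which raises the ratio of that arm. The 5p end exceeded its neighbour 1.33- to 2.78-fold and the 20p end 1.15- to 2.20-fold. On 3p the ratio was 0.725 to 0.939 and on 6p 0.741 to 0.951. The remaining 7 arms, 2p, 4p, 9p, 10p, 12p, 17p and 18p, lay on both sides of 1.

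Along the first 10 Mb the density was nearly level up to 4 Mb and then fell. Averaged over the 16 arms, the 8 libraries held 22.8 to 34.2 peaks in the first Mb, 25.1 to 35.9 in the next and 21.1 to 32.4 between 3 and 4 Mb. Between 4 and 5 Mb the range was 16.6 to 25.2, and between 5 and 6 Mb 15.9 to 21.1, before it returned to 22.1 to 32.5 between 6 and 7 Mb. A second low lay between 9 and 10 Mb, at 14.8 to 24.4. The mean over libraries was 29.5 in the outermost Mb, 30.6, 29.2 and 28.6 in the 3 after it and 20.7 between 9 and 10 Mb. Only 1p began late: its first region in any library started at 762710, whereas the first regions of the other 15 arms started between 11474 and 220414.

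**Figure D2:**
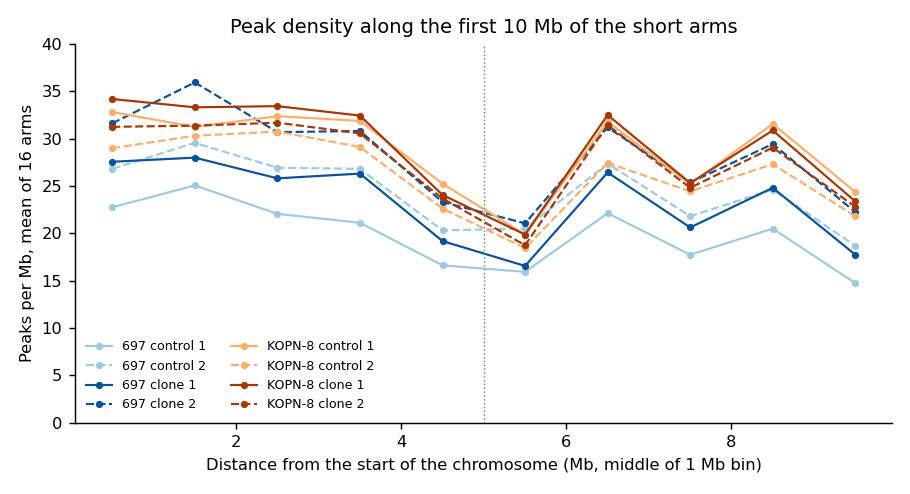
Peaks per Mb (mean of 16 short arms, 1 line per library) against the distance from the start of the chromosome in bins of 1 Mb; the dotted line marks 5 Mb. The density is nearly level up to 4 Mb, with lows between 4 and 6 Mb and between 9 and 10 Mb.

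By arm, the mean density over the 8 libraries was highest at the 7p end, with 40.4 ± 4.33 peaks per Mb (SD over libraries), followed by 16p with 37.2 ± 6.20, 11p with 36.6 ± 3.76 and 2p with 34.3 ± 5.29. It was lowest at the 3p end, with 21.1 ± 4.54, at 18p with 21.3 ± 3.02 and at 10p with 21.9 ± 2.56. Neighbours in this order lay within the spread of the libraries. In merged regions the median over arms was 48.7 per Mb at the ends against 46.8 in the next 5 Mb, with the highest end at 69.6 on 7p.

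Terminal peaks were wider than those of the next 5 Mb but less often among the strongest of their list. The median terminal peak was 325 to 360 bp wide and its neighbour 324 to 338 bp. In 8 of 8 libraries the terminal value was the larger, by 17.9 bp on average (exact sign-flip permutation, two-sided p = 0.00781, adjusted p = 0.0651). Between 6.74% and 8.57% of terminal peaks lay in the top 10% of their list by the deposited fold over background, against 8.92% to 12.2% in the next 5 Mb. The terminal share was lower in every library, by 3.22 percentage points on average (exact sign-flip permutation, p = 0.00781, adjusted p = 0.0651). The median percentile did not separate the zones: the difference was 0.16 points, positive in 4 of 8 libraries (exact sign-flip permutation, p = 0.859). On single arms the median percentile of terminal peaks ranged from 39.1 on 3p to 59.6 on 4p, and the median width of terminal regions from 296 bp on 3p to 471 bp on 4p.

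Of the terminal regions 921 (22.8%) were called in all 8 lists, against 20.4% of all regions in the genome and 21.5% in the next 5 Mb. Another 921 (22.8%) were called in 1 list only, against 30.2% of all regions. The constant share was highest on 16p, at 34.5%, and on 11p, at 31.0%, and lowest on 3p, at 14.3%. Terminal regions lay a median of 9118 bp from the next region, and 52.3% had that neighbour within 10000 bp, against 48.7% of all regions.

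The strongest constant regions were picked by their smallest percentile over the 8 lists, so a high fold in every library follows from the rule. Chromosome 11 held the first, at 4628928 to 4629870, with deposited folds of 19.0 to 21.9 over the 8 lists, and the next on chromosome 3 from 3220901 to 3221815, with 19.5 to 20.9. The others named by the rule, the 5 with the highest smallest percentile, were on chromosome 9 from 4792339 to 4793530 (17.03 to 19.8), on chromosome 12 from 4429752 to 4430885 (17.1 to 18.7) and on chromosome 11 from 4414227 to 4415322 (16.9 to 19.5). By that choice all 5 were high in each list, above the 98th percentile. The widest constant regions were weaker. The first, on chromosome 6 from 391120 to 393620, was 2501 bp wide with folds of 4.59 to 7.48. It was followed by a region of 2230 bp on chromosome 2 (1746498 to 1748727), a pair of 2159 and 2036 bp on chromosome 4 (1194154 to 1196312 and 2537074 to 2539109) and one of 1946 bp on chromosome 10 (180564 to 182509). Of these 5 wide regions, the one at 2537074 on chromosome 4 was the strongest, with folds of 10.8 to 16.4.

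The first comparison asked how the lines differed at the arm ends. The ends took 2.995 ± 0.0252% (SD, n = 2) of the peaks in the 697 controls and 3.53 ± 0.0565% in the KOPN-8 controls. Over all libraries, clones included, the share was 0.519 percentage points lower in 697, with no overlap between the 4 libraries of each line (exact permutation, two-sided p = 0.0286, the smallest that 4 against 4 allow, and 0.143 after adjustment over the 25 tests). The next 5 Mb differed in the same direction, by 0.442 points, and the ratio of ends to neighbours did not separate the lines (log2 difference 0.00048, exact permutation, p = 0.971). Clones of 1 line are not independent of their controls, so the 4 libraries of a line are not 4 separate cell populations.

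In single windows, 10 of the 16 ends differed between the 2 control groups. All 5 Mb windows of the genome were fitted with limma on the log2 number of peaks per 10000 listed peaks, and 77.3% of 577 windows passed the threshold, an adjusted p of 0.05 with Benjamini-Hochberg adjustment, so a share of 10 in 16 is not above that of the genome. Of all windows 40.9% were higher and 36.4% lower in the 697 controls, and of the 16 ends 2 were higher and 8 lower. At the 20p end the 697 controls had 11.5 and 11.8 peaks per 10000 and the KOPN-8 controls 22.7 and 21.7 (log2 difference -0.90 ± 0.065 SE, limma adjusted p = 8.56e-11). The 17p end had 13.6 and 15.3 against 24.4 and 24.8 (log2 difference -0.75). At 4p the values were 14.2 and 13.8 against 22.3 and 23.9 (-0.70), at 1p 14.3 and 14.3 against 22.1 and 23.4 (-0.65) and at 8p 18.7 and 17.1 against 27.7 and 28.3 (-0.63). No library of 1 line reached the level of the other on these 5 arms, which were listed for the largest differences of the 16 ends.

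The 16p, 18p and 6p ends were also lower in the 697 controls, by less (log2 differences -0.40, -0.32 and -0.20). The 3p and 9p ends were higher in 697. On 3p the controls of 697 had 21.7 and 20.1 peaks per 10000 against 14.5 and 14.5 (log2 difference 0.51 ± 0.079 SE, limma adjusted p = 4.11e-06), and on 9p 21.5 and 21.5 against 17.9 and 18.4 (0.24, limma adjusted p = 0.000518). The call on 6p was lost without 697 control 2 (limma adjusted p = 0.0962), without KOPN-8 control 2 (adjusted p = 0.108) with lists of equal length (adjusted p = 0.275) and with a replicate block (adjusted p = 0.204). On 9p the difference was 0.07 among the strongest 50% of each list and did not pass (limma adjusted p = 0.374). The 2p, 5p, 7p, 10p, 11p and 12p ends did not pass, with log2 differences between -0.10 and 0.08.

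**Figure D3:**
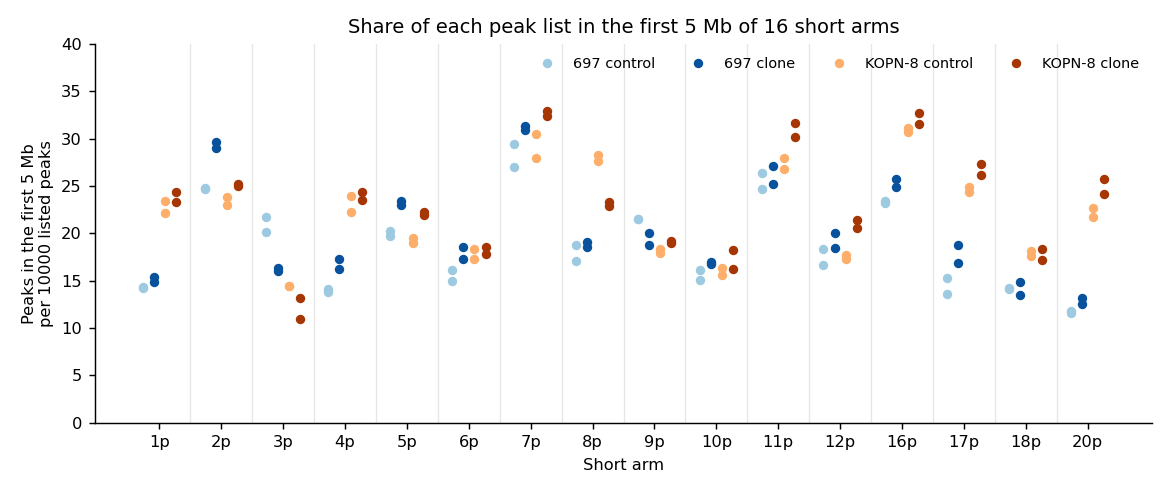
Peaks in the first 5 Mb of each short arm per 10000 peaks of the list (y axis, from 0), with 1 point per library and colours for line and group. KOPN-8 lies above 697 at 1p, 4p, 8p, 16p, 17p, 18p and 20p, and 697 lies above KOPN-8 in all libraries at 3p.

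Relative to the next 5 Mb the lines differed on some arms and not on others. A fit of the log2 ratio of each 5 Mb window to the next one passed for 61% of 277 pairs in the genome (31.4% higher and 29.6% lower in the 697 controls) and for 9 of the 16 ends (6 higher and 3 lower). The 20p end differed less than its neighbour: the ratio was 2.20 and 1.93 in the 697 controls and 1.17 and 1.15 in those of KOPN-8 (log2 difference 0.77 ± 0.097 SE, limma adjusted p = 4.63e-07). On 5p the ratio was 1.33 and 1.33 against 1.97 and 2.25 (-0.64, limma adjusted p = 1.48e-05), although the end itself did not differ. That end also changed its layout: between 2 and 3 Mb the 697 libraries held 17 to 22 peaks and the KOPN-8 libraries 2 to 4. The count of 9 fell to 4 without 697 control 2 and to 5 without KOPN-8 control 2.

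Regions private to a line were unevenly spread over the ends. Of the terminal regions 253 (6.27%) were called in all 4 lists of 697 and none of KOPN-8, against 5.85% in the genome and 5.08% in the next 5 Mb. The other way there were 392 (9.72%), against 7.3% in the genome and 10.7% in the next 5 Mb. The 20p end had 1 region private to 697 and 38 private to KOPN-8, 17p had 3 and 24, and 1p had 5 and 29. The 3p end had 19 and 6, the 2p end 38 and 23 and the 5p end 35 and 26. In the next 5 Mb the counts were 2 and 54 on 20p, 2 and 32 on 17p and 6 and 29 on 1p. There 3p had 26 and 10, 2p 21 and 22 and 5p 25 and 5. By strength, the first region private to 697 lay within the 5p stretch between 2 and 3 Mb described above, on chromosome 5 from 2687777 to 2688228. Its folds were 16.9 and 19.2 in the controls, against 20.1 and 24.3 in the clone. The next were on chromosome 8 from 1828917 to 1829511 (13.5 to 18.6), chromosome 2 from 1708505 to 1709180 (12.7 to 14.9), chromosome 10 from 1166512 to 1167210 (12.8 to 16.2) and chromosome 9 from 3850125 to 3850646 (12.1 to 15.2).

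Of the regions private to KOPN-8, the strongest was on chromosome 20 from 290991 to 291426, where the folds were 17.1 and 15.8 without the edit and 15.7 and 16.7 with it. Another on that arm ran from 3410958 to 3411496 (12.4 to 16.3). The others were on chromosome 8 from 2480771 to 2481345 (13.04 to 13.6), chromosome 2 from 237845 to 238322 (12.4 to 16.4) and chromosome 4 from 331225 to 332129 (11.2 to 15.6). All 10 regions named as private had folds above 11 in each list that called them, and they were ranked for such strength. The absence of a peak in the other line is part of the definition.

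The second comparison asked whether the SETD2 clones differed from their controls at the arm ends. The ends took a larger share of the peaks in both clones. The 697 controls gave 3.01% and 2.98% and the 697 clone 3.22% and 3.19%. The KOPN-8 controls gave 3.49% and 3.57%, against 3.74% and 3.68% for the KOPN-8 clone. The groups did not overlap in either line, and the differences of 0.209 and 0.181 percentage points were larger than the SD of any group, but the smallest two-sided p is 0.3333 within a line and 0.0556 over both, which is what the exact permutation test gave (adjusted p = 0.463 and 0.174 over the 25 tests).

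The neighbouring 5 Mb also took a larger share in both clones. There the share was 2.55% and 2.58% against 2.70% and 2.70% in 697 and 3.02% and 3.01% against 3.14% and 3.14% in KOPN-8. The ratio of terminal to neighbouring peaks was 1.17 ± 0.0195 for the 697 controls and 1.19 ± 0.0116 for the clone, and 1.17 ± 0.0220 and 1.18 ± 0.0158 in KOPN-8 (SD, n = 2 each; exact permutation over both lines, two-sided p = 0.278). The median width of terminal peaks was 325 and 337 bp in the 697 controls and 343 and 357 bp in the 697 clone. For KOPN-8 it was 354 and 354 bp without the edit and 360 and 358 bp with it. Clone libraries thus had the wider terminal peaks in both lines (p = 0.0556 by exact permutation, the smallest the design gives, adjusted p = 0.174). The rest of the genome moved the same way, from 314 and 316 bp to 321 and 326 bp in 697 and from 325 and 326 bp to 330 and 328 bp in KOPN-8. In the next 5 Mb the widths were 324 and 324 bp against 337 and 338 bp in 697. For KOPN-8 they overlapped there, at 324 and 337 bp against 334 and 327 bp. Shares are relative to the list, so a fall elsewhere in the genome raises them.

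Single ends moved in both directions. In the 697 clone 6 of 16 ends passed the threshold, against 23.1% of 577 windows in the genome and 5 of 16 in the next 5 Mb: 5 rose (14.6% of all windows did) and 1 fell (8.49%). Over the 16 ends the median log2 change was 0.12, over all windows it was -0.00013. The 17p end rose most, from 13.6 and 15.3 peaks per 10000 to 16.8 and 18.8 (log2 change 0.29 ± 0.064 SE, limma adjusted p = 0.00188). At 4p the controls had 14.2 and 13.8 and the clone 17.3 and 16.2 (0.25, limma adjusted p = 0.00378). The 2p end went from 24.7 and 24.8 to 29.04 and 29.7 (0.24, adjusted p = 0.00146), 5p from 19.8 and 20.3 to 23.01 and 23.4 (0.21, adjusted p = 0.00582) and 6p from 16.1 and 14.98 to 18.6 and 17.3 (0.20, adjusted p = 0.0315). These 5 ends were picked because they passed, so the lack of overlap between their groups is not further evidence. On 2p the rise lay in several bins, for instance 39 and 46 peaks against 49 and 68 between 1 and 2 Mb and 13 and 19 against 24 and 28 between 2 and 3 Mb.

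Some of these calls rested on single libraries or on the weaker peaks. The call was lost at 4p without clone 1 (limma adjusted p = 0.0648), at 6p without control 2 (adjusted p = 0.191) or clone 1 (0.224), and at 17p without clone 2 (0.067). With lists of equal length 2p, 3p and 17p no longer passed (limma adjusted p = 0.0967, 0.0651 and 0.0605), and among the strongest 50% of each list 2p, 3p and 6p did not (0.349, 0.106 and 0.0701). The 5p end passed under all 15 alternatives.

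In the KOPN-8 clone 5 of 16 ends passed, 3 upwards and 2 downwards, against 15.4% of all windows (5.55% upwards and 9.88% downwards) and 3 of 16 in the next 5 Mb. The 12p end rose from 17.7 and 17.3 peaks per 10000 to 21.4 and 20.6 (log2 change 0.25 ± 0.063 SE, limma adjusted p = 0.0082). There 28 and 30 peaks stood against 40 and 39 between 2 and 3 Mb. The 5p end rose from 19.03 and 19.5 to 22.3 and 21.96 (0.20, limma adjusted p = 0.0147) and the 11p end from 26.8 and 27.99 to 31.6 and 30.2 (0.17, adjusted p = 0.0444). The 8p end fell most, from 27.7 and 28.3 to 23.3 and 22.9 (-0.27 ± 0.055 SE, limma adjusted p = 0.00137). With lists of equal length none of the 16 ends passed in KOPN-8; limma adjusted p was 0.278 for 8p, 0.19 for 12p, 0.159 for 5p and 0.145 for 11p. Among the strongest 50% of each list 3p, 5p and 8p did not pass (adjusted p = 0.135, 0.294 and 0.101).

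Leaving out libraries touched these ends unequally. The 8p call held without each of the 8 libraries in turn. At 12p it was lost without clone 1 (limma adjusted p = 0.0893) and at 5p without control 1 (adjusted p = 0.126) or clone 1 (0.114). At 11p it was lost without control 1 (0.285), control 2 (0.0541) or clone 1 (0.286), and also without 697 clone 1 (0.0599) or clone 2 (0.0605), which enter only through the shared estimate of the spread, and with no filter on low windows (0.0685).

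**Figure D4:**
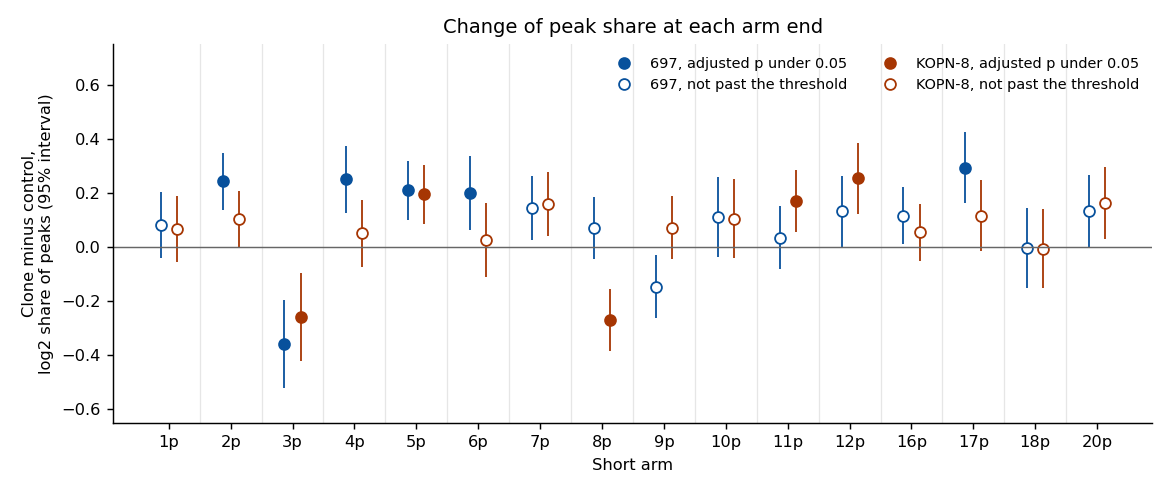
Log2 change of the share of peaks at each arm end, clone minus control, with 95% intervals from limma, for 697 and KOPN-8. Filled points have an adjusted p under 0.05; 3p is below 0 and 5p above 0 in both lines, and 8p is below 0 in KOPN-8 only.

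The 8p end was the only one of the 16 whose change differed between the lines. There the 697 controls had 18.7 and 17.1 peaks per 10000 and the 697 clone 19.04 and 18.6, so the change was 0.07, and the difference of the changes was -0.34 ± 0.078 SE (limma interaction, adjusted p = 0.00479; 12% of all windows passed, 3.47% upwards and 8.49% downwards). Within the KOPN-8 clone the fall was not even along the end. Between 4 and 5 Mb the peaks numbered 38 and 36 in the KOPN-8 controls against 19 and 18 in the clone, and between 2 and 3 Mb 52 and 45 against 38 and 36. In the first Mb they held 27 and 24 against 32 and 26. The next 5 Mb of 8p fell as well, by 0.33 on the log2 scale (limma adjusted p = 0.00335), and relative to that neighbour the end did not change (0.05, adjusted p = 0.817). Peak numbers move with DNA copy number, which was not measured, so its part in these values was not tested.

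The 3p end was lower in the clones of both lines. There the 697 controls had 124 and 141 peaks and the 697 clone 101 and 125, or 21.7 and 20.1 against 16.03 and 16.3 per 10000 (log2 change -0.36 ± 0.079 SE, limma adjusted p = 0.00201). In KOPN-8 it held 102 and 92 peaks against 74 and 85, or 14.5 and 14.5 against 10.995 and 13.1 per 10000 (-0.26 ± 0.079, limma adjusted p = 0.0295). Per 10000 peaks, no library of a clone reached its controls, at an end described because it passed in both lines. The difference of the changes between the lines did not pass (interaction 0.10, 95% interval -0.13 to 0.33, limma adjusted p = 0.645). The KOPN-8 value is the weaker: the call was lost without KOPN-8 control 1 (limma adjusted p = 0.126), control 2 (0.08) or clone 1 (0.424), without 697 clone 1 (0.0588) or clone 2 (0.0584), with lists of equal length (0.49), among the strongest 50% of each list (0.135), with no filter on low windows (0.0531) and with the KOPN-8 libraries alone (0.0571).

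On 3p the peaks were concentrated at the edges of the end, with 21 to 35 in the first Mb and 32 to 47 between 4 and 5 Mb, and fewer between. Between 2 and 3 Mb the controls of KOPN-8 held 6 and 6 peaks and its clone 3 and 3, and the controls of 697 held 14 and 20 and its clone 10 and 12. The next 5 Mb of 3p did not pass in either line (log2 changes -0.13 and -0.06, limma adjusted p = 0.129 and 0.482). The end against that neighbour did not pass either (-0.23 and -0.19, adjusted p = 0.138 and 0.245).

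The ratio of an end to its next 5 Mb changed on 1 arm in 697 and on none in KOPN-8. At 10p the ratio of end to neighbour was 0.935 and 1.05 for the 697 controls and 0.775 and 0.815 for the clone (log2 change -0.31 ± 0.088 SE, limma adjusted p = 0.0319; 8.3% of 277 pairs passed, 3.97% upwards and 4.33% downwards). It lay higher in the KOPN-8 clone, at 0.898 and 0.840 against 0.733 and 0.754 (0.22, adjusted p = 0.163; 3.25% of pairs passed in KOPN-8, 1.44% upwards and 1.81% downwards). The difference of the 10p changes was 0.53 (limma interaction, adjusted p = 0.0202; 2.53% of pairs passed, 1.81% upwards and 0.722% downwards). Of the 16 ends, 4 in 697 and 3 in KOPN-8 had an unadjusted p under 0.05. The 10p call in 697 was lost without 697 control 2 (limma adjusted p = 0.311), clone 1 (0.19) or clone 2 (0.0728), among the strongest 50% of each list (-0.15, adjusted p = 0.514) and with lists of equal length (0.0868). The difference of the changes was lost without any of these (0.105, 0.0949 and 0.0679) and without KOPN-8 control 1 (0.0808) or clone 1 (0.117). The 10p end itself did not pass in 697 or KOPN-8 (log2 changes 0.11 and 0.10, limma adjusted p = 0.259 and 0.304). Its neighbour went from 16.1 and 15.4 peaks per 10000 in the 697 controls to 21.9 and 20.5 in the clone. In KOPN-8 the neighbour went from 21.3 and 21.7 to 20.4 and 19.3.

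The third comparison counted regions that appeared or disappeared. A region counted as gained with a peak in both clone libraries and none in the controls, and as lost in the opposite case; this rule has no test. In 697, 163 terminal regions (4.04%) were gained and 30 (0.744%) lost, against 3.08% and 1.32% of all regions. In the next 5 Mb the values were 3.56% and 0.911%. In KOPN-8, 156 (3.87%) were gained and 107 (2.65%) lost, against 2.45% and 2.59% of all regions, and 3.20% and 2.29% in the next 5 Mb. Gained regions outnumbered lost ones at 14 of 16 ends in 697 and at 12 of 16 in KOPN-8, against 13 and 9 of 16 in the next 5 Mb. Over all regions 4102 were gained and 1762 lost in 697, and 3254 and 3450 in KOPN-8. With 1 library left out the rule is looser: in 697 the gained count was 206 without control 1, 363 without control 2, 517 without clone 1 and 269 without clone 2, and the lost count 196, 90, 42 and 105. As a share, the 697 gains at the ends were 5.16%, 9.21%, 12.9% and 7.01% in these 4 settings, against 4.23%, 7.54%, 13.01% and 7.10% of all regions, so the ends were not above the genome without clone 1 or without clone 2. The lost shares in 697 were 4.91%, 2.28%, 1.05% and 2.74% at the ends, against 8.34%, 4.41%, 1.91% and 3.71% of all regions. In KOPN-8 the counts were 285, 209, 283 and 379 gained and 237, 301, 186 and 168 lost. Its gained shares were 7.31%, 5.27%, 7.26% and 9.54% at the ends against 5.16%, 3.76%, 6.24% and 7.61% of all regions. Its lost shares were 6.08%, 7.59%, 4.77% and 4.23% at the ends, against 6.37%, 9.10%, 4.60% and 4.29% of all regions.

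**Figure D5:**
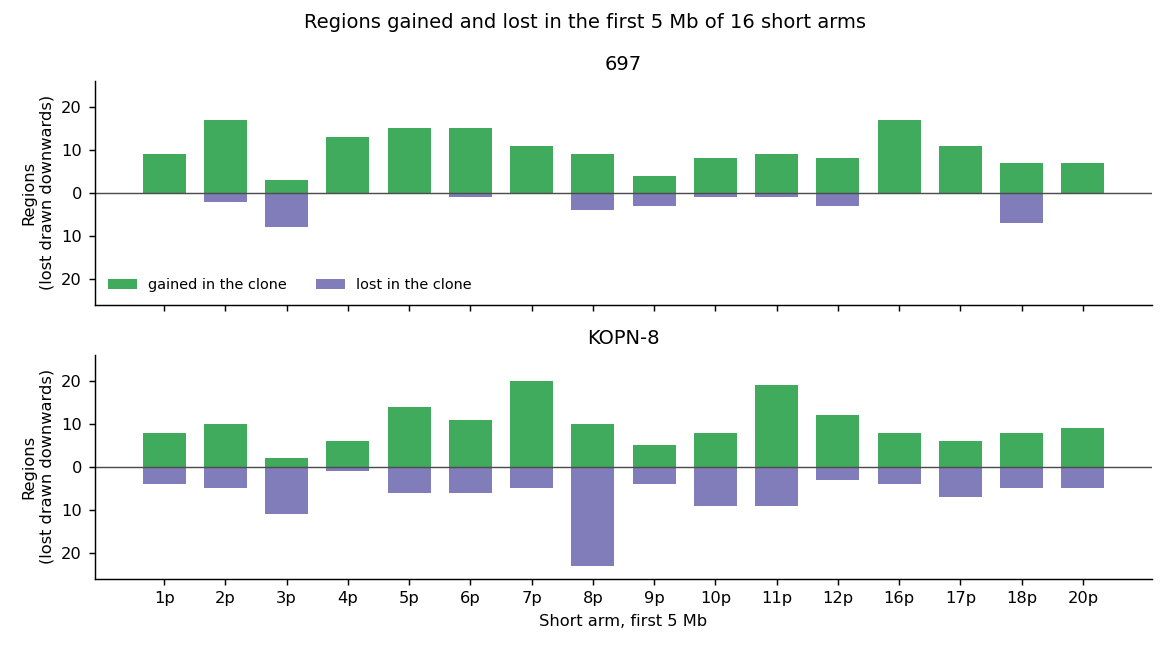
Number of terminal regions gained (upwards) and lost (downwards) in the SETD2 clone at each of 16 arm ends, for 697 and KOPN-8. Lost regions outnumber gained ones at 3p in both lines, and 8p holds 23 of the 107 regions lost in KOPN-8.

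Gains and losses were unevenly spread over the arms. In 697 the 2p and 16p ends gained 17 regions each and lost 2 and 0, 5p gained 15 and lost 0, and 6p gained 15 and lost 1. The 3p end gained 3 and lost 8. In the next 5 Mb 2p gained 17 and lost 2, 5p gained 5 and lost 3, and 6p gained 7 and lost 2. There 3p gained 4 and lost 5, and 16p, with only 79 regions, gained 2 and lost 0. In KOPN-8 the 7p end gained 20 (5.75%) and lost 5, 11p gained 19 (6.33%) and lost 9, and 5p gained 14 (5.02%) and lost 6. The 12p end gained 12 (5.63%) and lost 3. The 8p end gained 10 and lost 23 (7.96%), and 3p gained 2 and lost 11 (4.38%). Over all regions 2.45% were gained and 2.59% lost in KOPN-8. In the next 5 Mb 8p also lost more than it gained, with 2 gained and 12 lost (6.09%). There 7p gained 8 (3.04%) and lost 2, 11p gained 9 (3.70%) and lost 4, and 12p gained 11 (5.09%) and lost 1. The 5p neighbour gained 3 (1.59%) and lost 4, and that of 3p gained 5 and lost 3 (1.17%). Without 8p the KOPN-8 ends gained 146 and lost 84. Gained and lost counts and peak shares come from the same lists and are not independent of each other.

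Changed regions were weak. Their median smaller percentile within the 2 lists that called them was 20.6 for regions gained in 697 and 18.8 for those lost, and 20.2 and 15.4 in KOPN-8. Terminal regions called in all 8 lists had a median smallest percentile of 52.1. Of the 163 regions gained in 697, 11 lay above the 50th percentile in both lists, as did 0 of the 30 lost, 5 of the 156 gained in KOPN-8 and 7 of the 107 lost. Among the gains of 697, 68 regions (41.7%) had a peak in each KOPN-8 control, and another 68 (41.7%) had none in any KOPN-8 library, against 31.0% and 44.2% of the gains in the next 5 Mb. Among those of KOPN-8, 28 (17.9%) had a peak in each 697 control and 99 (63.5%) in no 697 library, against 24.1% and 60.3% in the next 5 Mb.

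The strongest gains of the 697 clone had folds near 8. They lay on chromosome 12 from 4507951 to 4508522 (7.41 and 8.24 in the clone), on chromosome 18 from 2875160 to 2875888 (7.41 and 8.68) and from 2515393 to 2515716 (7.22 and 8.02), on chromosome 6 from 4156124 to 4156480 (7.13 and 8.46) and on chromosome 4 from 235978 to 236316 (6.56 and 7.57). The regions at 2875160, 4156124 and 235978 were called in all 4 KOPN-8 libraries. The strongest losses were on chromosome 2 from 3005407 to 3005941 (5.83 and 6.99 in the controls) and from 769867 to 770101 (5.30 and 6.02), on chromosome 9 from 2722773 to 2723125 (5.83 and 6.75) and from 447696 to 447999 (5.03 and 5.54), and on chromosome 8 from 1901820 to 1902094 (4.81 and 4.46).

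Of the KOPN-8 losses, the 4 strongest were on 8p. The first, on chromosome 8 from 4661315 to 4661628, reached folds of 8.05 and 9.14 in the KOPN-8 controls, no peak in the clone, and folds of 6.42 to 10.6 in all 4 libraries of 697. The others ran from 3314696 to 3315170 (7.41 and 7.51), from 4908373 to 4908680 (8.17 and 7.31) and from 2104349 to 2104692 (6.74 and 8.50). The fifth was on chromosome 3 from 130047 to 130294 (6.28 and 7.33). The strongest gains were on chromosome 12 from 2994527 to 2994899 (7.34 and 7.19 in the clone), within the 12p stretch described above, on chromosome 6 from 3079174 to 3079464 (7.10 and 7.19) and from 2898387 to 2898690 (6.08 and 6.98), on chromosome 9 from 2116178 to 2116469 (8.52 and 6.45) and on chromosome 5 from 4480918 to 4481435 (6.25 and 6.82).

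Of the terminal regions 5 were gained in both lines, 0 were lost in both, and 2 moved in opposite directions. The 5 shared gains were 3.07% of the 697 gains and 3.21% of those of KOPN-8. In the next 5 Mb 4 gains were shared (3.10% and 3.45%), and over all regions 82 (1.999% and 2.52%). The 5 shared gains began at 423235 on chromosome 8 (to 423790), at 1114710 on chromosome 1 (to 1115104), at 1628360 on chromosome 12 (to 1628687), at 2881409 on chromosome 18 (to 2881747) and at 1508929 on chromosome 11 (to 1509347). All were weak, with folds of 3.32 to 5.57, and their smallest percentile was at most 21.6. The 2 regions with opposite changes were on chromosome 2 from 3247571 to 3248059, which KOPN-8 lost while 697 gained it, and on chromosome 18 from 3665759 to 3666127, the reverse. Both had folds of at most 4.25.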

How the data were processed

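The submitters' processing notes name Bowtie2, MACS2 and the build hg19; versions, settings, duplicate handling and the cut-site shift are in none of the sources read here. Each library has its own deposited list with positions and 1 value per peak, read from its range and even grid as a fold over local background, a linear ratio; these are the authors' own values and served for ranking and thresholds inside 1 list at a time. Positions are hg19, counted from 1. The sequence of the regions was not used here.

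Peaks per 5 Mb window were counted by peak start and expressed per 10000 listed peaks. The log2 values, with a pseudocount of 0.5, were fitted with limma 3.58.1 (R 4.3.3, trended eBayes) over 577 windows with a mean of at least 20 peaks and over 277 window pairs, with 8 libraries in 4 groups, Benjamini-Hochberg adjustment and a threshold of 0.05. Library-level values were compared by exact permutation over libraries. Merging and fits were tested on simulated data. Regions were named by rule: the 5 highest by smallest percentile (or width) per class, and all changed in both lines. Alternatives were a stronger peak threshold, equal list lengths (57154 peaks), other zones, pseudocount, filter, centring and overlap, a replicate block and each library left out. The members and lists were chosen with earlier results of these data known. Bins of 1 Mb and the ratios without 16p or 5p were chosen after the values were seen. Precision is limited by 2 libraries per group; without depths no counting interval can be given.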

Additional observations from a re-analysis of the deposited data

Results flagged for a closer look

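In 2 cases a change differed between the lines by a limma interaction term: 1 was an arm end and 1 the ratio of an end to its next 5 Mb. At the 8p end the log2 change in KOPN-8 minus that in 697 was -0.34 (adjusted p = 0.00479); it did not pass among the strongest 50% of each list (adjusted p = 0.137) or with lists of equal length (0.17). For the 10p end relative to its next 5 Mb the difference was 0.53 (adjusted p = 0.0202), and it did not pass in those 2 settings either (0.339 and 0.0574). For the 10p end itself the difference of the changes was -0.0057 and did not pass (limma adjusted p = 0.970). With groups of 2 libraries no library could be tested for standing apart from its group.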

How the results depend on the processing

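The larger terminal share in the clones and in KOPN-8, and the excess of ends over neighbours, kept their direction in every alternative run; for the clones the design cannot reach the threshold. The ratio of ends to neighbours in 697 against KOPN-8 was close to 0 on the log2 scale and had no stable sign: -0.075 in the strongest 50% of each list, -0.037 against the zone from 10 to 15 Mb, -0.014 without chromosomes 16 and 17, between -0.0080 and 0.0099 with 1 library left out, and 0.10 for the first 2 Mb against the next 2 Mb, where it passed (exact permutation, p = 0.0286). The change of that ratio in the KOPN-8 clone ranged from -0.0064 to 0.032 with 1 library left out. With lists of equal length the ends called by limma went from 6 to 3 in 697, from 5 to 0 in KOPN-8, from 1 to 0 for the difference of the changes and, for ends against neighbours, from 0 to 1 in KOPN-8 and from 1 to 0 for the difference; the cause was not tested. In the strongest 50% they went from 5 to 3 in KOPN-8 and, for the difference against neighbours, from 1 to 0, and without the filter on low windows from 5 to 3 in KOPN-8. With 1 library left out, 4 to 7 ends were called in 697, 1 to 6 in KOPN-8 and 9 to 11 between control groups; against neighbours 0 to 1 in 697, 0 to 1 for the difference and 4 to 9 between control groups. The 16p ratio between control groups, 0.34, turned to -0.14 in the strongest 50%. Terminal regions gained and lost in the strongest 50% were 101 and 9 in 697 (4.82% and 0.43%, against 3.12% and 1.31% of all regions). In KOPN-8 they were 96 and 53 (4.58% and 2.53%, against 3.08% and 3.37%). With lists of equal length, 133 and 36 of 3473 terminal regions were gained and lost in 697 and 149 and 82 in KOPN-8. Of all 105635 regions in that setting, 2906 were gained and 2113 lost in 697, and 3025 and 2961 in KOPN-8. The part of list length in these counts was not tested. With 1 library left out, terminal gains and losses ranged from 206 to 517 and 42 to 196 in 697. In KOPN-8 they ranged from 209 to 379 and 168 to 301. Without 697 clone 1 or clone 2 the share of ends gained in 697 (12.9% and 7.01%) was not above that of all regions (13.01% and 7.10%). Of 474 values for single ends that passed in the main fit, 397 stayed on their side, 76 lost the call and 1 reversed. For the share at an end, calls were lost under 0 to 3 of 15 alternatives in 697 and 2 to 9 of 15 in KOPN-8. Between control groups they were lost under 0 to 4 of 14.

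The replicate block gave 6 ends called in 697, 6 in KOPN-8, 1 for the difference and 9 between control groups; for ends against neighbours it gave 1, 0, 1 and 6. Deviations of same-numbered libraries correlated at 0.29 in 697 and -0.27 in KOPN-8 over 577 windows, so the numbers were not taken to pair the libraries. A planned count of regions by replicate number was not run.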

Other observations

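Peak names carry running numbers, and some of these numbers are skipped; the labels give no reason. Within the ends 15 to 29 numbers per list were missing between 2 terminal peaks, or 0.714% to 1.14%, against 2 to 7, or 0.0947% to 0.386%, within the next 5 Mb and 0.85% to 0.994% in the rest of the genome. Another 38 to 76 numbers per list lay between zones or chromosomes and could not be placed.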
